A study of Mus musculus with 8 samples.

Results

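Opioid receptor and opioid peptide genes were examined in mouse dorsal root ganglion (DRG) sensory neurons traced back from skin of the hindpaw and muscle of the thigh. The set was defined by gene family, with no measured value in its rule, and it held 7 of the 22609 genes counted: the 4 receptor genes Oprm1, Oprd1, Oprk1 and Oprl1, and the 3 peptide precursor genes Penk, Pdyn and Pnoc. RNA-Seq had been carried out on 4 female and 4 male libraries to find sex differences in sensory neurons. Both groups were naive C57BL/6J mice of 8 to 12 weeks, and the females were in estrous phase. All mice had received the fluorescent lectin WGA-488 in both hindpaws and thigh muscles, and the labelled neurons were sorted from lumbar DRG. No untraced neurons and no treated mice were part of these libraries, and skin and muscle neurons were mixed within each one. By the study's text, each library held the labelled neurons from L3 to L5 ganglia of both body sides. The labels do not number the mice.

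Opioid receptors are inhibitory G protein-coupled receptors. In sensory neurons they lower cyclic AMP, close voltage-gated calcium channels and reduce transmitter release onto spinal cord neurons, and they are the site of action of opioid analgesics. Their peptide ligands are cut from large precursors in secretory granules: enkephalins mainly from Penk, dynorphins from Pdyn and nociceptin from Pnoc.

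The libraries held 4.80 to 7.33 M gene reads (M, 1e6 reads). Levels are given as reads per 1e6 gene reads (CPM) and, between genes, as reads per kilobase of annotated exon per 1e6 gene reads (RPKM). A level of 3 reads, the smallest treated as detectable, was 0.409 to 0.625 CPM, and intervals on reads cover counting error only, because PCR copies were not removed by molecular identifiers. Pan-neuronal markers were abundant in all libraries, with a summed level of 14873 to 20532 CPM in females and 15936 to 16431 CPM in males. Female replicate 4 stood apart from the other libraries of its sex: its counts differed from those of the other females by a chi-square of 30.1 to 44.9 per degree of freedom, against 2.82 to 12.1 for all other pairs within a sex. Marker genes of satellite glia and Schwann cells were also present, at 11501 to 14883 CPM in females and 5406 to 11118 CPM in males. In RNA pooled from many neurons, fewer cells that express a gene and less RNA per cell cannot be told apart.

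The enkephalin precursor is shown first, because Penk had the most reads of the peptide genes and was the only one of the 3 that passed the filter on low counts. Its coding sequence (268 codons) carries 6 copies of Met-enkephalin and 1 of Leu-enkephalin, all in the second coding exon on the minus strand of chromosome 4 (build mm9). In the sequences below, read from the genome 5′ to 3′ on the coding strand, capitals mark the 15 bases that encode the peptide, and the 6 bases on each side are in lower case.
Penk Met-enkephalin copy 1, chr4:4061481-4061495: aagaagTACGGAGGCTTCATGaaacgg
Penk Met-enkephalin copy 2, chr4:4061460-4061474: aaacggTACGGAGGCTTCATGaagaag
Penk Met-enkephalin copy 3, chr4:4061373-4061387: aagaggTATGGCGGCTTCATGaagaag
Penk Met-enkephalin copy 4, chr4:4061220-4061234: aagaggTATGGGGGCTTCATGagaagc
Penk Met-enkephalin copy 5, chr4:4061148-4061162: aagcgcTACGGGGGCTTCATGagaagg
Penk Leu-enkephalin, chr4:4061088-4061102: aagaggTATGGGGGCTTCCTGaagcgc
Penk Met-enkephalin copy 6, chr4:4060995-4061009: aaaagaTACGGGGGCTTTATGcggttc
All 7 copies were preceded by a pair of codons for basic residues, and 5 of the 7 were also followed by one. Such pairs are where prohormone convertases cut the precursor. The 7 copies used 6 different codon runs. The prodynorphin gene Pdyn carries 3 copies of Leu-enkephalin in its own coding sequence of 248 codons, as the start of each dynorphin-type peptide, and they are shown because this gene was nearly silent in the libraries.
Pdyn Leu-enkephalin copy 1, chr2:129513974-129513988: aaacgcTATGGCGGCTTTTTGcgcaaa
Pdyn Leu-enkephalin copy 2, chr2:129513866-129513880: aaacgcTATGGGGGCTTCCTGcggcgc
Pdyn Leu-enkephalin copy 3, chr2:129513809-129513823: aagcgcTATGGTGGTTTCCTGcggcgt

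The 4 receptors share much of their membrane-spanning coding sequence, and reads were 50 bases long. The most alike stretch of read length was therefore located for each of the 6 pairs of receptor genes. Pairs differed at 4 to 9 of the 50 bases, so no 50-base stretch was the same in any pair. The closest pair was Oprd1 and Oprk1, shown with the differing bases in capitals.
Oprd1, chr4:131673144-131673193, minus strand: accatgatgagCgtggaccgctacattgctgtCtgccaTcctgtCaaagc
Oprk1, chr1:5588861-5588910, plus strand: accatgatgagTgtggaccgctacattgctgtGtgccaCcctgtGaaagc
For Oprm1 the closest stretch with Oprd1 differed at 6 bases.
Oprm1, chr10:3517603-3517652, minus strand: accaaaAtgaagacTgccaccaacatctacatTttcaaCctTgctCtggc
Oprd1, chr4:131673330-131673379, minus strand: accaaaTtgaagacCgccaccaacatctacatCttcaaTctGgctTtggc

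Among the receptors, Oprl1 and Oprm1 had by far the most reads, and for none of the 4 did the sex difference pass the test. Oprm1 encodes the mu receptor, the target of morphine and of beta-endorphin and enkephalins (chr10:3308332-3588035, minus strand, protein-coding, 35 annotated transcripts). It was at 27.6, 28.1, 26.5 and 26.3 CPM in female replicates 1 to 4 and at 28.5, 25.5, 26.6 and 25.6 CPM in male replicates 1 to 4. All 8 libraries lay within this narrow band and the sexes overlapped. The means were 27.1 ± 0.893 CPM in females and 26.6 ± 1.39 CPM in males (SD, n = 4 each). The log2 fold change of females over males was 0.01 ± 0.12 (SE; 95% interval -0.26 to 0.28), with an edgeR adjusted p-value of 0.988. The level varied by 4.18% between libraries (coefficient of variation), less than the 7.74% that counting 127 to 209 reads alone would give. Exons of Oprm1 share 96 bases (1.2% of its exon length) with Ipcef1 on the opposite strand, and SMART-seq2 libraries do not keep the strand.

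Oprl1, which encodes the nociceptin receptor (chr2:181449721-181455690, plus strand), was at 24.5, 23.3, 36.9 and 29.8 CPM in female replicates 1 to 4 and at 28.9, 37.9, 36.0 and 24.3 CPM in male replicates 1 to 4. High and low libraries occurred in both sexes, so the groups overlapped. The means were 28.6 ± 6.21 CPM in females and 31.8 ± 6.32 CPM in males (SD, n = 4 each). The log2 fold change was -0.17 ± 0.20 (SE; 95% interval -0.61 to 0.26; edgeR adjusted p-value 0.843), and it ran from -0.33 to -0.07 with 1 library left out and was -0.44 with a glial score in the fit (unadjusted edgeR p-value 0.119), the mean log2(CPM + 1) of 11 satellite glia and Schwann cell markers in each library. Unlike Oprm1, its variation of 20.0% between libraries was above the 7.30% given by counting.

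Oprd1 encodes the delta receptor, which enkephalins activate with high affinity (chr4:131666641-131700401, minus strand). It was at 8.52, 5.90, 6.04 and 6.57 CPM in female replicates 1 to 4 and at 5.32, 5.94, 9.91 and 5.77 CPM in male replicates 1 to 4. A single library of each sex, female replicate 1 and male replicate 3, lay above the rest. The means were 6.76 ± 1.21 and 6.73 ± 2.13 CPM in females and males (SD, n = 4 each), and the 95% interval of the log2 fold change ran from -0.57 to 0.57 (edgeR adjusted p-value 0.9999).

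Oprk1, the kappa receptor gene, whose product binds dynorphins (chr1:5578574-5596212, plus strand), had the fewest reads of the receptors, 15 to 52 per library. It was at 4.54, 4.34, 3.54 and 2.53 CPM in female replicates 1 to 4 and at 7.09, 5.20, 3.63 and 2.96 CPM in male replicates 1 to 4. Male replicates 1 and 2 lay above all females, and the other two males lay among them. The means were 3.74 ± 0.914 CPM in females and 4.72 ± 1.84 CPM in males (SD, n = 4 each). The log2 fold change was -0.36 ± 0.32 (SE; 95% interval -1.07 to 0.36; edgeR adjusted p-value 0.814). It was at -0.08 without male replicate 1 and at -0.52 without male replicate 4, and it turned to 0.24 with the glial score in the fit (unadjusted edgeR p-value 0.535). The level of Oprk1 varied by 34.2% between libraries, against 19.5% from counting alone.

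Of the precursors, only Penk was measurable in every library. Penk encodes proenkephalin (chr4:4060678-4065966, minus strand). It was at 3.02, 6.07, 4.17 and 5.39 CPM in female replicates 1 to 4 and at 3.14, 2.38, 2.15 and 1.48 CPM in male replicates 1 to 4. In reads these were 22, 35, 20 and 32 against 23, 16, 13 and 10. Female replicates 2, 3 and 4 lay above all males, while female replicate 1 lay just below male replicate 1, so the sexes overlapped. The mean was 4.66 ± 1.35 CPM in females and 2.29 ± 0.684 CPM in males (SD, n = 4 each), a ratio of 2.04. In whole DRG, a preparation not among these libraries, the paper reports the opposite direction. There Penk was its sole male-selective gene, sex-linked genes aside, at an unadjusted cut-off, and it did not pass the adjusted one.

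The log2 fold change of Penk was 0.99 ± 0.32 (SE; 95% interval 0.29 to 1.69). Its unadjusted edgeR p-value was 0.0102, and after Benjamini-Hochberg adjustment over 12518 genes it was 0.637, so Penk did not pass the threshold of 0.05. With DESeq2 the adjusted p-value was 0.356 and with limma-voom 0.682. Over the 8 fits that each left out a library, the log2 fold change ranged from 0.83 to 1.20 and the unadjusted p-value from 0.0040 to 0.0371. Without female replicate 4 the values were 0.91 and 0.0261. Penk was thus 1 of the 5 opioid genes tested with an unadjusted p-value under 0.05, where 7.11% of all genes tested had one (4.44% higher in females). None of the 5 passed after adjustment, as 0.0879% of all genes did. In exons, 233 bases of Penk (14.3%) lie opposite a long non-coding RNA, A830012C17Rik, that has no row of its own in the counts, and reads of the 2 genes cannot be told apart there.

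**Figure D1:**
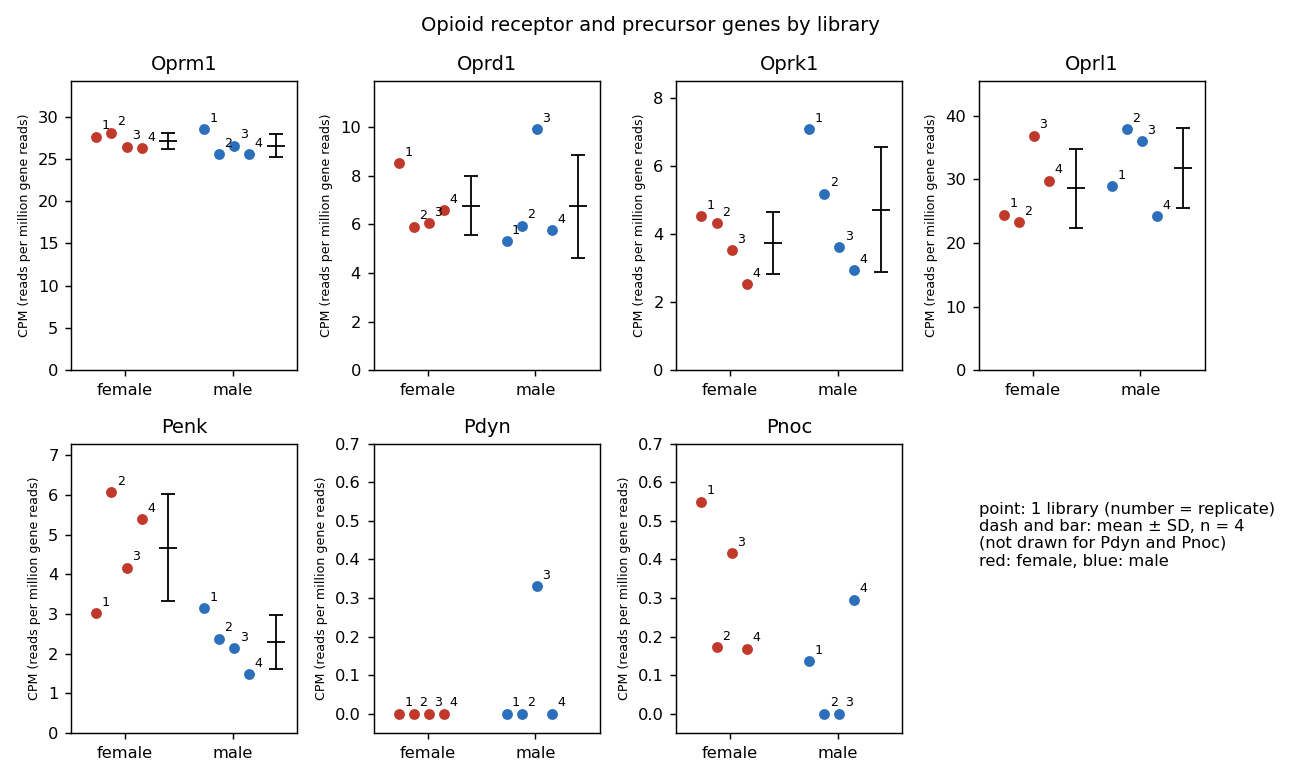
Each panel shows 1 opioid gene as CPM (reads per 1e6 gene reads, linear axis) in each library, with females in red and males in blue, the replicate number beside each point, and the mean ± SD of 4 libraries beside the points, except for Pdyn and Pnoc. Oprm1 stayed between 25.5 and 28.5 CPM in all 8 libraries, while the females of Penk ranged from 3.02 to 6.07 CPM and the males from 1.48 to 3.14 CPM.

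Several markers of other cell types were also fitted higher in females, none past the adjusted threshold, and their values are given beside Penk. Of the 11 markers of satellite glia and Schwann cells, such as Apoe and Fabp7, 10 were fitted higher in females and 4 of them had an unadjusted p-value under 0.05, a threshold that 4.44% of all genes tested passed as higher and 2.67% as lower in females. With the glial score of each library added to the fit, the log2 fold change of Penk was 1.16 with an unadjusted edgeR p-value of 0.0347. The glial sums of the sexes did not overlap (11501 to 14883 against 5406 to 11118 CPM), so this fit cannot fully separate sex from glial content. All 4 fibroblast markers tested, of 6 listed, were fitted higher in females, 3 of them at that threshold, and these 4 summed to 74.4 to 93.2 CPM in females and 35.9 to 67.7 CPM in males. All 6 listed summed to 76.2 to 123 CPM and 40.1 to 69.0 CPM, where female replicate 4 held 32.7 CPM of the untested Col1a1. Markers of myelinated neurons, such as Nefh and Ntrk3, were fitted higher in females for 8 of 8 genes, 2 of them at that threshold (3160 to 5679 against 2181 to 3937 CPM). The 7 macrophage and MHC class II markers summed to 5.91 to 15.8 CPM in females and 2.05 to 7.27 CPM in males. Only 2 of the 7 were tested, and Cd74 was at a log2 fold change of 1.59 (unadjusted edgeR p-value 0.0107) and C1qb at -0.14. The 1 endothelial marker tested, Pecam1, was at -0.01. Peptidergic nociceptor markers, such as Calca and Trpv1, were fitted lower in females for 5 of 6 genes, 4 of them with an unadjusted p-value under 0.05. Non-peptidergic nociceptor markers were fitted lower in females for 5 of 5 genes, none with an unadjusted p-value under 0.05. Of 6 itch neuron markers, 1 was fitted higher in females, Sst at a log2 fold change of 1.46 (edgeR p-value 0.00142 before and 0.413 after adjustment). Of 3 markers of C-fibre low-threshold mechanoreceptors, 2 were fitted higher in females, and none had an unadjusted p-value under 0.05. The part of glia, fibroblasts, macrophages and of the mix of neurons in the Penk values was not tested. Of 5 markers of inhibitory interneurons of the spinal cord, where Penk is also expressed, Slc32a1 and Lbx1 had no read in any library, Gad2 had at most 1, Gad1 had 4 to 10 and Pax2 had 0 to 7, and the summed level was 1.21 to 2.71 CPM in females and 1.36 to 1.65 CPM in males. The part of spinal cord RNA in the Penk values was not tested.

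**Figure D2:**
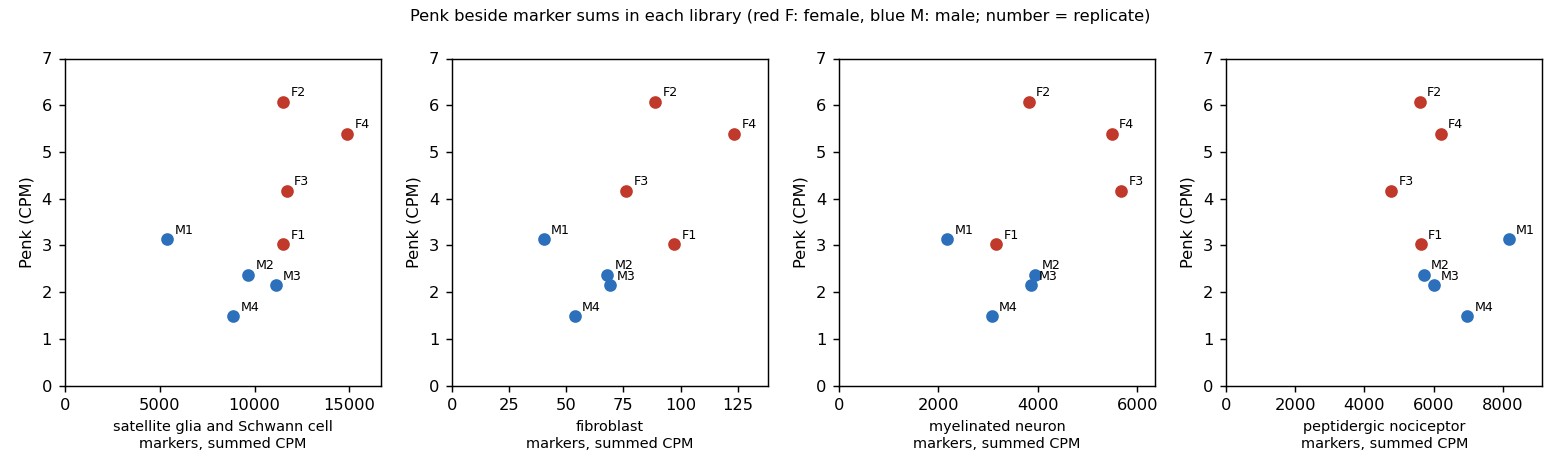
Penk (CPM, vertical axis) is plotted against the summed CPM of 4 marker lists (horizontal axes) in each library, with F for female and M for male and the replicate number. Female replicate 4 was at 5.39 CPM of Penk. It had the highest glial sum and the highest sum of all 6 fibroblast markers, of which 32.7 CPM was Col1a1. Female replicate 2 had the highest Penk level, 6.07 CPM. Its glial sum of 11501 CPM was close to the 11523 and 11693 CPM of female replicates 1 and 3. Every female had a higher glial sum than the highest male, at 11118 CPM.

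The other precursors were at or near the limit of detection. Pdyn, which encodes prodynorphin (chr2:129512301-129525580, minus strand), had 0 reads in 7 libraries and 2 reads in male replicate 3. Over all 50.7 M gene reads this gives 0.0395 CPM (exact Poisson 95% interval 0.0048 to 0.143), below the 0.0592 CPM of 3 reads in the pooled libraries. Pnoc, which encodes prepronociceptin (chr14:66019510-66044046, minus strand), had 4, 1, 2 and 1 reads in female replicates 1 to 4 and 1, 0, 0 and 2 reads in male replicates 1 to 4. Pooled, these were 0.337 CPM in females (exact Poisson 95% interval 0.145 to 0.663) and 0.112 CPM in males (0.023 to 0.326). The intervals overlapped, and neither gene passed the filter on low counts. Pomc, the precursor of beta-endorphin, had 6, 5, 9 and 2 reads in the female and 6, 10, 3 and 5 reads in the male libraries and was below the filter too. The ligand genes of the kappa and nociceptin receptors were thus hardly detectable in libraries that held the transcripts of both receptors.

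Levels were then ordered per kilobase of exon within each library. Oprl1 was highest at 8.04 ± 1.61 RPKM (SD, n = 8), followed by Oprm1 at 3.29 ± 0.138, Penk at 2.13 ± 0.986, Oprd1 at 1.68 ± 0.399 and Oprk1 at 0.618 ± 0.211 RPKM. Pnoc and Pdyn were at 0.115 and 0.0143 RPKM. Against a median of 6.63 RPKM over the genes tested, only Oprl1 was above the middle (percentile 54.6), and Oprm1, Penk, Oprd1 and Oprk1 were at percentiles 33.5, 23.9, 19.3 and 5.13. The placing of Oprm1 rests on the length used: with its longest transcript it was at 9.76 RPKM and percentile 54.7, and Oprl1 was also at percentile 54.7.

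Neighbours in this order were compared by an exact sign-flip permutation test on their log2 ratio within each library (two-sided, 8 libraries, adjusted over 4 pairs, smallest possible p-value 0.0078). The order came from the same 8 libraries, so these p-values only describe how steadily each ratio held between libraries. Oprl1 was above Oprm1 in 8 of 8 libraries by a ratio of 2.40 (exact permutation p = 0.0078, adjusted p = 0.0156). Oprd1 was above Oprk1 in 8 of 8 libraries by a ratio of 2.79 (exact permutation p = 0.0078, adjusted p = 0.0156). Oprm1 was above Penk in 6 of 8 libraries by a ratio of 1.70 (exact permutation p = 0.0313, adjusted p = 0.0417). Penk and Oprd1 could not be ordered, each being the higher in 4 libraries (exact permutation p = 0.445). The place of Penk differed between the sexes, as a description without a test. In females Penk was above Oprd1 in 3 of 4 libraries and above Oprm1 in 2 of 4, at a mean of 2.85 RPKM against 1.68 and 3.33 RPKM. In males it was above Oprd1 in 1 of 4 and above Oprm1 in 0 of 4, at 1.40 RPKM against 1.67 and 3.26 RPKM.

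The ratios depended on the transcript length that was used. The union of annotated exons of Oprm1 is 8156 bases, because many alternative transcripts contribute to it, whereas its longest single transcript has 2749 bases. With the longest transcript as length, Oprl1 and Oprm1 were level, with a log2 ratio of -0.03 and 4 of 8 libraries on each side (exact permutation p = 0.789), and Oprm1 was above Penk in 8 of 8 libraries by a ratio of 4.48. Oprd1 was then above Oprk1 in 7 of 8 libraries by a ratio of 1.90 (exact permutation p = 0.0156, adjusted p = 0.0313). The pair Oprm1 and Penk also lost its adjusted p-value under 0.05, at 0.0833, when female replicate 1, female replicate 3 or any male library was left out, with the log2 ratio at 0.62 to 0.83 in these 6 cases.

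**Figure D3:**
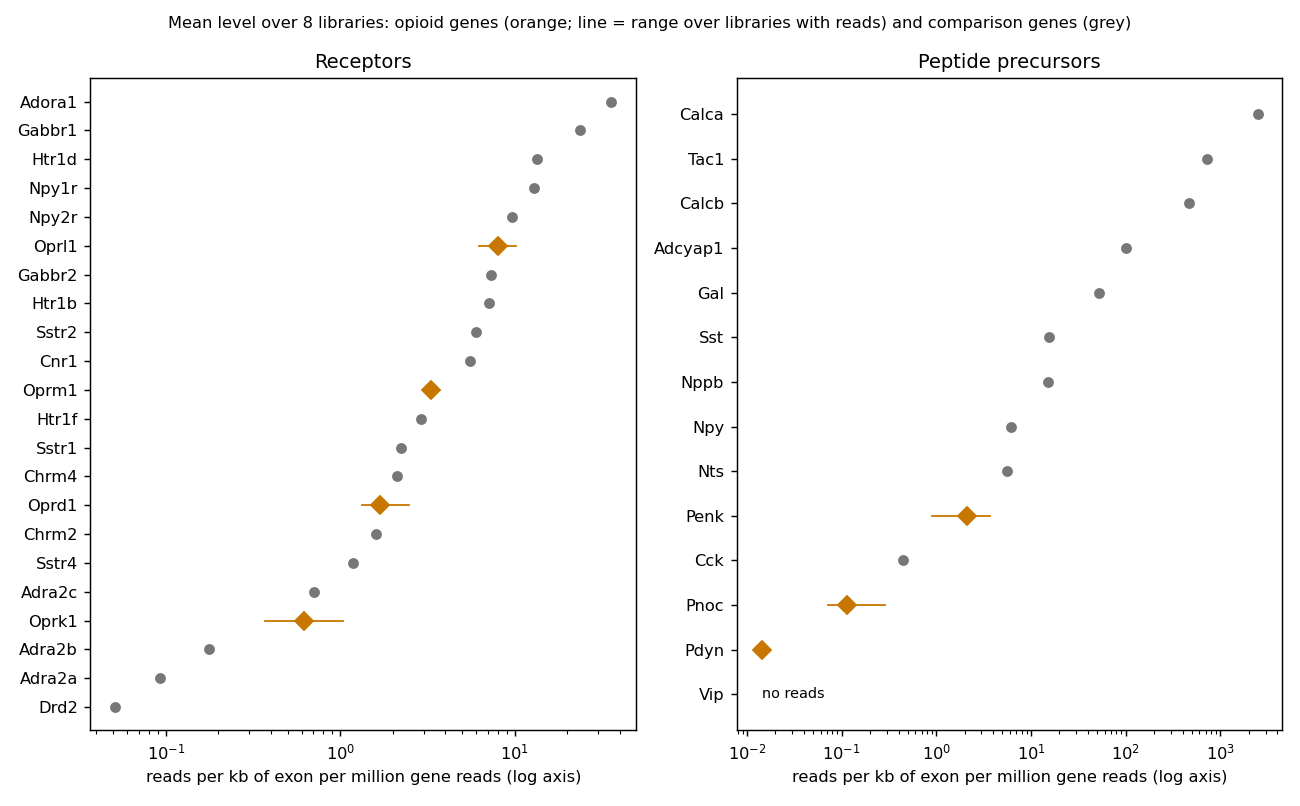
Mean level over 8 libraries in reads per kilobase of exon per 1e6 gene reads (log axis) for the opioid receptors beside 18 other inhibitory receptors on the left and the opioid precursors beside 11 other neuropeptide precursors on the right, with opioid genes in orange and the range of libraries with reads as a line. Oprl1 at 8.04 RPKM stood below 5 of the 18 other receptors and Oprk1 at 0.618 RPKM below 15, whereas Penk at 2.13 RPKM stood below 9 of the 11 other precursors.

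To compare the receptors within a library, each was expressed as a share of the summed RPKM of all 4. Oprl1 made up 57.4% ± 6.48 of it in females and 59.7% ± 4.13 in males, and Oprm1 25.5% ± 3.33 and 23.5% ± 3.61 (SD, n = 4 each). Oprd1 made up 12.9% ± 2.80 and 11.8% ± 2.81, and Oprk1 4.22% ± 1.29 and 4.92% ± 1.93. The order Oprl1, Oprm1, Oprd1, Oprk1 was present in every library. No sex difference in these shares passed the test: the differences of females minus males were -2.35 percentage points for Oprl1, 2.01 for Oprm1, 1.05 for Oprd1 and -0.706 for Oprk1, with two-sided exact permutation p-values of 0.486, 0.457, 0.571 and 0.571 and an adjusted p-value of 0.571 for each. The 70 labelings of 4 against 4 libraries allow no p-value below 0.0286. With the longest transcript as length, the mean shares were 43.7% for Oprl1, 44.6% for Oprm1, 7.61% for Oprd1 and 4.10% for Oprk1.

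**Figure D4:**
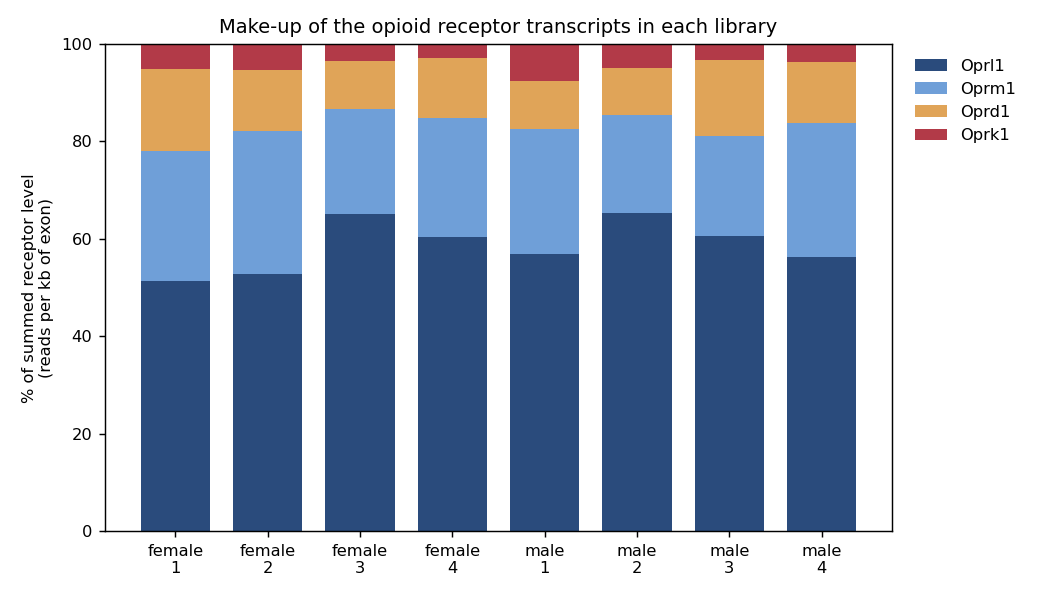
Stacked bars give the percent of the summed opioid receptor level (reads per kilobase of exon) held by each receptor gene in each of the 8 libraries. Oprl1 was the largest share in all of them, between 51.4% and 65.3%, and Oprk1 the smallest, between 2.81% and 7.65%.

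The 4 opioid receptor genes were set beside 18 other receptor genes that act through the same inhibitory G proteins. The summed level of the 4 opioid receptors was 11.5 to 15.8 RPKM per library, with the union of exons as length. The 18 others summed to 99.4 to 141.5 RPKM, so the opioid receptors held 7.63% to 11.7% of both. This share sets 4 genes against 18, and it was not computed with the longest transcript. With that length Oprm1 was at 9.76 instead of 3.29 RPKM. The highest of the 18 were the adenosine receptor Adora1 at 35.7 ± 1.89 RPKM, the GABA-B subunit Gabbr1 at 23.6 ± 4.52 RPKM and the serotonin receptor Htr1d at 13.4 ± 3.16 RPKM (SD, n = 8). Oprm1 lay below 9 of the 18 and Oprd1 below 12, and with the longest transcript of each gene as length they lay below 4 and 13. The opioid precursors summed to 1.06 to 3.81 RPKM against 2770 to 5321 RPKM for 11 other neuropeptide precursors, or 0.0237% to 0.110% of both. Calca (calcitonin gene-related peptide) was at 2477 ± 444.5, Tac1 (substance P) at 722.9 ± 226 and Calcb at 462 ± 60.6 RPKM (SD, n = 8). Of the 15 other receptors tested, 2 had an unadjusted p-value under 0.05, both lower in females, and of the 9 other precursors tested, 4 were lower and 1 higher in females at that threshold, where 2.67% of all genes tested were lower and 4.44% higher. None of either list passed after adjustment.

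Other genes of opioid signalling spanned a wide range of levels, from no reads to 785.5 RPKM. Signalling genes were grouped in 6 lists of 47 genes, of which 41 were tested. At an unadjusted edgeR p-value under 0.05, 2 were higher and 2 lower in females, together 9.76% of those tested against 7.11% of all genes (4.44% higher and 2.67% lower in females). After adjustment 0 passed (smallest adjusted p-value 0.651), and DESeq2 and limma-voom also gave 0, where 0.383% and 0.0799% of all genes passed. The median log2 fold change was -0.02, against 0.00 over all genes tested. The count of 4 moved to 7 without female replicate 4, to 0 without male replicate 1, and to 2 without each of male replicates 2, 3 and 4.

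Among opioid-binding proteins outside the receptor family, Cxcr7, also called Ackr3, a scavenger receptor that can take up opioid peptides, was at 8.55 ± 0.624 CPM in females and 5.00 ± 2.34 CPM in males (SD, n = 4 each). The sexes overlapped, with 7.81 to 9.26 CPM in females and 3.41 to 8.47 CPM in males. For this gene the log2 fold change was 0.75 ± 0.28 (SE) and the edgeR p-value 0.0221 before and 0.651 after adjustment. When the glial score was in the fit, these were 0.36 and 0.338 before adjustment. Without male replicate 2 the log2 fold change of Cxcr7 was 1.13 (unadjusted edgeR p-value 0.00041), and without male replicate 1, 3 or 4 the unadjusted p-value was 0.0561 to 0.0623.

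The machinery that cuts and trims precursors was abundant. All 6 processing genes passed the filter, from Pcsk1, a prohormone convertase, at 24.6 RPKM to Ctsl, the protease cathepsin L, at 785.5 ± 137 RPKM, and Cpe, the carboxypeptidase that removes the basic residues left by cleavage, was at 456 ± 124.5 RPKM (SD, n = 8). None had an unadjusted p-value under 0.05. Ctsl had the smallest, 0.0591 in edgeR (adjusted 0.699), at a log2 fold change of -0.30 ± 0.14 (SE), and without female replicate 4 it was at -0.41 (unadjusted 0.00358). Cpe was at 0.29 ± 0.22 (adjusted 0.798), with 0.50 without female replicate 1 (unadjusted 0.00344), 0.11 without female replicate 4 and 0.044 with the glial score in the fit. Of 6 peptide-degrading enzymes, 4 were tested and 0 had an unadjusted p-value under 0.05, against the 7.11% of all genes. Dpp3, a dipeptidyl peptidase that cleaves enkephalins, was the highest at 80.9 ± 8.20 RPKM, followed by the endothelin-converting enzymes Ece1 at 29.2 and Ece2 at 17.7 RPKM. Neprilysin, encoded by Mme and the best known enkephalin-degrading enzyme, was at 1.08 RPKM, and aminopeptidase N (Anpep) had no read in any library.

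All 10 G protein and RGS genes were tested. Gnao1, the alpha subunit of Go, was at 110 RPKM and the Gi subunits Gnai1, Gnai2 and Gnai3 were at 24.6, 43.4 and 26.9 RPKM. The highest gene was Rgs4, a GTPase activator that shortens Gi and Go signals, at 784 ± 107 RPKM (SD, n = 8; log2 fold change -0.21, adjusted p-value 0.755, and 0.04 with the glial score in the fit). Rgs17 and Rgs19, of another subfamily of these regulators, had log2 fold changes of -0.32 ± 0.13 and -0.35 ± 0.15 (SE), with unadjusted edgeR p-values of 0.0308 and 0.0470 and adjusted p-values of 0.662 and 0.696. With the glial score in the fit these were -0.17 and -0.23, with unadjusted p-values of 0.336 and 0.324.

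Of the 11 effector genes, 8 were tested and 0 had an unadjusted p-value under 0.05, where 7.11% of all genes did. Cacna1b, the pore subunit of the N-type calcium channel that opioid receptors close, was the highest at 5.65 ± 1.19 RPKM (SD, n = 8). Its log2 fold change was -0.22 ± 0.21 with an adjusted p-value of 0.822, and it turned to 0.12 with the glial score in the fit. The G protein-gated potassium channel subunits were scarce. Kcnj3 was at 1.55 RPKM, Kcnj6 and Kcnj9 were at 0.139 and 0.246 RPKM and below the filter, and Kcnj5 had no read in any library.

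All 10 genes of receptor desensitisation and trafficking were tested. Adrbk1, the kinase GRK2 that phosphorylates active receptors, was the highest at 36.6 ± 5.15 RPKM (SD, n = 8; log2 fold change 0.21, adjusted p-value 0.768), and with the glial score in the fit its log2 fold change was 0.39 (unadjusted edgeR p-value 0.0474). Arrb2, the beta-arrestin 2 gene, was at 20.4 to 24.6 CPM in females and at 16.0 to 20.4 CPM in males, with the lowest female at 20.42 and the highest male at 20.41 CPM, so the sexes barely failed to overlap, as they did for 5.52% of all genes tested. The log2 fold change of Arrb2 was 0.34 ± 0.14 (SE), at an unadjusted edgeR p-value of 0.0349 and an adjusted p-value of 0.681, and 0.36 with an unadjusted 0.112 when the glial score was in the fit. Arrb1, beta-arrestin 1, was at 222 ± 98.0 CPM in females and 327 ± 27.6 CPM in males (SD, n = 4 each). It was at -0.57 ± 0.29 (SE), with an unadjusted p-value of 0.0727 and an adjusted p-value of 0.714, and its females spread from 98.5 to 322.8 CPM. Without female replicate 4 the log2 fold change of Arrb1 was -0.33 (unadjusted edgeR p-value 0.0420), without female replicate 1 it was -0.80 (0.0173), and with the glial score in the fit it was -0.13 (0.707).

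**Figure D5:**
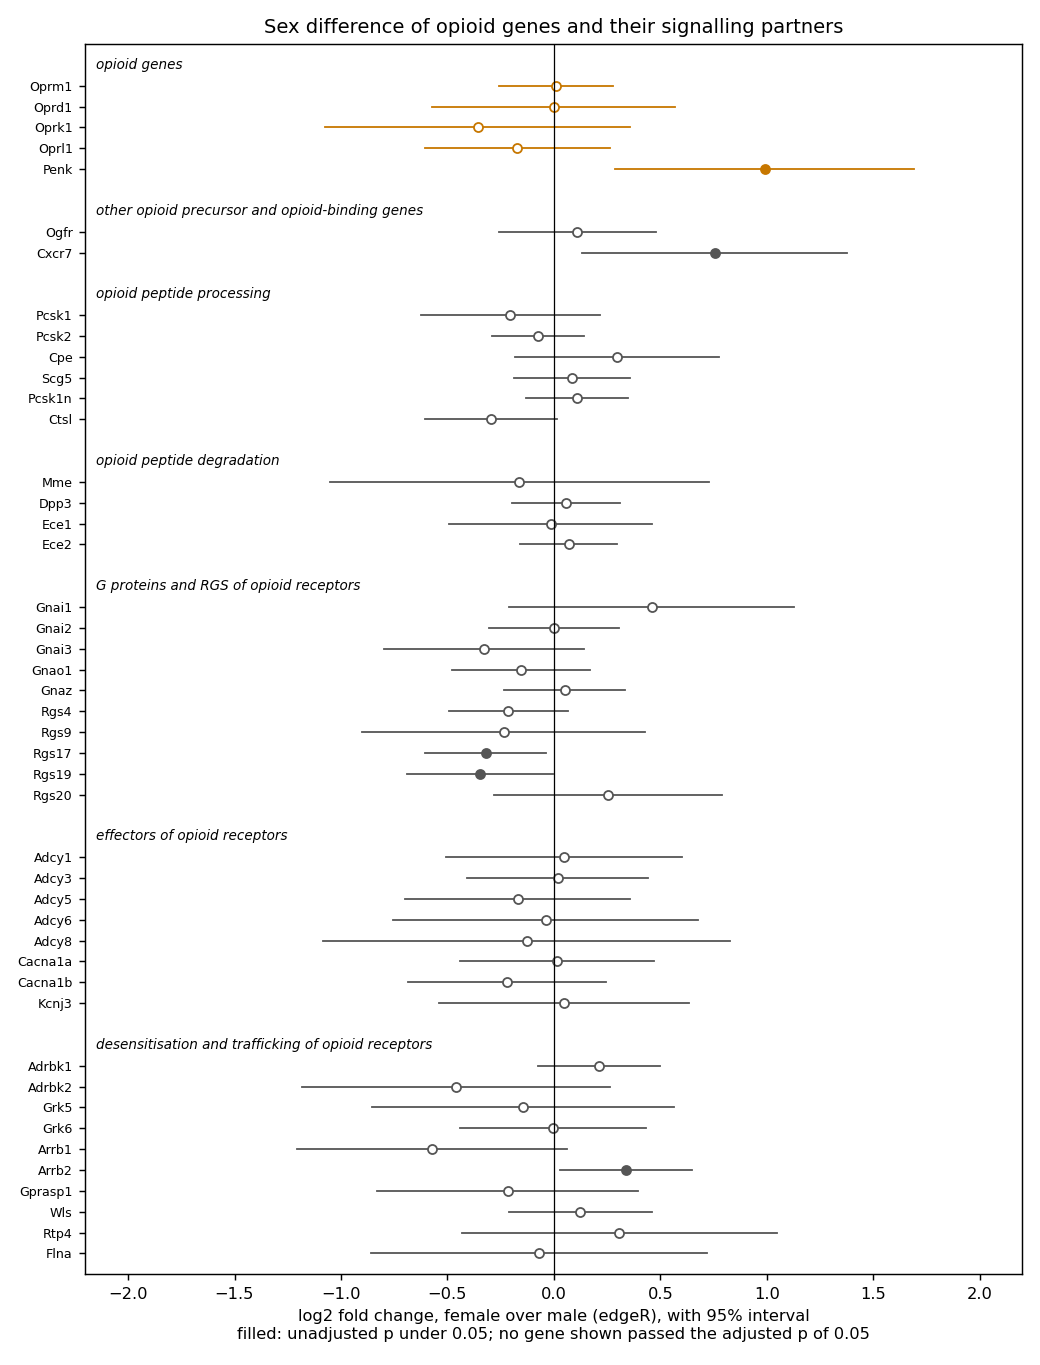
Log2 fold change of females over males with its 95% interval from the edgeR fit for the 5 opioid genes tested (orange) and for genes of opioid signalling (grey, by list), with filled points for an unadjusted p-value under 0.05. Penk at 0.99 and Cxcr7 at 0.75 lie furthest to the right, and no gene shown passed the adjusted threshold.

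Finally, the genes whose log2(CPM + 1) followed each opioid gene most closely over the 8 libraries were listed, as a description without a test, over 9073 or 9074 genes with a mean of at least 10 CPM. The points share their libraries and their depth, and the coefficients are the highest of all these genes. Penk went most closely with Lypd1, a Ly6-family gene (Pearson r = 0.986), Supt16h, a subunit of the histone chaperone FACT (0.960), and Tmem8 (0.949), and 16 genes had r above 0.9. Oprm1 went with Insrr (0.929) and Pabpc1 (0.890), with 2 genes above 0.9. Oprd1 went with Sh3pxd2a (0.908), Cd3eap (0.856) and Ptp4a2 (0.854). Oprk1 went with Tdrd3 (0.952), Dhx16 (0.949) and Slc20a2 (0.919), and Oprl1 with BC018242 (0.8998), BC002163 (0.893) and Ghitm (0.881).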

How the data were processed

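Sorted WGA-488-labelled DRG neurons had been made into 4 female and 4 male SMART-seq2 libraries and sequenced as single 50-base reads. The authors aligned reads to mm9 with TopHat2 and counted them with HTSeq-count, per the labels and the study's methods, and the deposited values are raw counts per gene. Versions, annotation release and strand option are not given in the sources used here. The 5 summary rows of the counting program were kept out of library sizes. Reads outside features, 1 of these rows, were 57.8% to 60.5% of uniquely aligned reads.

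Groups and numbers came from the labels. Counts were tested with edgeR 4.0.16 (R 4.3.3): quasi-likelihood test, TMM, default expression filter, sex as the only term, Benjamini-Hochberg adjustment over 12518 genes. The study's methods used DESeq, and DESeq2 1.42.0 and limma-voom (limma 3.58.1) were alternatives, with other scalings and filters, a replicate block, the glial marker score as a covariate (mean log2(CPM + 1)) and each library left out. The fit was also run on simulated counts, and the outcome is not given here. Exon lengths and coordinates (1-based) are from GENCODE M1 on NCBIM37 (mm9), which matched 21679 symbols (95.9%). RPKM was computed with the union of exons. Ranks in the comparison lists with the longest transcript, and fibroblast sums over tested markers, were added after seeing the data.

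Named genes are the 7 opioid genes, Pomc, per signalling list the 2 smallest p-values and the highest level, the 3 highest of each comparison list and the 3 most similar genes per opioid gene. Some genes that this rule names are not reported here. Other genes of the lists named in the text were chosen after their values were seen. The opioid genes and all lists were chosen with earlier results of these data known.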

Additional observations from a re-analysis of the deposited data

Results flagged for a closer look

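Within each sex, the highest and lowest of the 4 libraries were compared with the others by Dixon's criterion for the levels of the opioid genes and the receptor shares. Of 20 groups with reads in more than 1 library, 1 held a library that stood far from the rest, where chance gives about 1 in 20. Oprd1 in male replicate 3 was at 9.91 CPM (60 reads), against 5.32 to 5.94 CPM in the other males. Pdyn in male replicate 3 was at 0.330 CPM, which is 2 reads, against 0 in the other males, and a group with reads in a single library always meets this criterion.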

How the results depend on the processing

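Penk kept its direction and stayed above an adjusted p-value of 0.05 in every alternative run, from 0.223 without female replicate 1 to 0.9999 with the glial covariate. The log2 fold change of Oprd1, near 0, changed sign to 0.0011 with DESeq2, 0.052 with limma-voom, 0.000387 with DESeq2 size factors and 0.021 with library size alone, and ranged from -0.13 to 0.24 with 1 library left out. That of Oprm1 ranged from -0.012 to 0.055 and that of Dpp3 from -0.034 to 0.10. The share difference ranged from -0.224 to 2.28 points for Oprd1 and from -1.23 to 0.203 for Oprk1. With the glial score, Oprk1 turned to 0.24, Rgs4 to 0.041, Cacna1b to 0.12 and Adcy5 to 0.37, Oprl1 was at -0.44, Oprd1 at -0.17 and Oprm1 at 0.11, 5 genes in all passed adjustment instead of 11, and 1 signalling gene (Adrbk1, not among the 4) was below an unadjusted 0.05 instead of 4. DESeq2 passed 48 genes. With 1 library left out these numbers were 7 to 84 (84 without female replicate 1) and 0 to 7. Oprl1 over Oprm1 was -0.029 with the longest transcript, and Oprm1 over Penk was 0.62 to 0.89 with 1 library left out. The glial sums of the sexes did not overlap, so fits with the glial score cannot fully separate sex from glial content. The causes were not tested.

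The replicate block gave 6 genes past adjustment, 0.025 for Oprd1 and 0.98 for Penk (unadjusted p = 0.0280, edgeR). With it the unadjusted p-values of Arrb2 and Rgs19 were no longer under 0.05 (0.0635 and 0.0787) and that of Arrb1 was (0.0325, at -0.69), and 0 opioid or signalling genes passed adjustment, as without it. Libraries with the same number did not all deviate together (correlations -0.11 to 0.14, 3 of 8 libraries closest to their own number). The labels do not say whether equal numbers mark a shared preparation, and this check cannot decide it. Depth limits Pdyn and Pnoc.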
